A study of Capra hircus with 2 samples.

Results

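CHGA, PCSK1N, PCSK1 and NMB encode proteins of the secretory granule pathway, and their UMI counts were described across the cell classes of the fetal goat ovary. The members are the features that carry those symbols in the deposited lists, 4 of 27271 features in all, with 1 feature for each symbol. They were chosen by where they had been seen to be high in these same libraries, so their levels by class are given as a description and support nothing further. The series holds 2 droplet single-cell libraries from ovaries of female goat (Capra hircus) fetuses, 1 labelled E85 and 1 labelled E125 for the embryonic day. The labels name no genotype, breed, treatment or number of animals for either library. No library has a replicate, so no test was run, and each difference compares 2 libraries rather than 2 stages with a known spread between animals.

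The regulated secretory pathway stores peptides in dense core granules until a signal releases them. Chromogranin A, the product of CHGA, is an acidic granin that packs granule content. Prohormone convertase 1, made by PCSK1, cuts peptide precursors at pairs of basic residues inside the granule. ProSAAS, made by PCSK1N, is a granin-like protein that inhibits this convertase. Neuromedin B, made by NMB, is a small peptide of the bombesin family that acts on a G protein-coupled receptor. Pregranulosa cells are the somatic cells that enclose oocytes as primordial follicles form, and the surface epithelium covers the ovary.

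After filtering, 3825 cells with 16300823 UMIs were kept at E85 and 7023 cells with 45375204 UMIs at E125, with median depths of 3102 and 3193 UMIs per cell. Cell classes were rebuilt from clusters and marker genes, since no cell annotation was used. Pregranulosa-like cells numbered 251 at E85 and 603 at E125, and surface-epithelium-like cells 265 and 334. The 9 pregranulosa markers with a feature summed to 629 and 2814 CPM (counts per 1e6 UMIs of the class) in the pregranulosa-like cells of E85 and E125. They summed to 411 and 408 CPM in the surface-epithelium-like cells. The 7 surface markers with a feature summed to 804 and 762 CPM in surface-epithelium-like cells against 241 and 173 CPM in pregranulosa-like cells, and UPK1B was at 0 in all of them. Neither list was confined to its class. The surface markers summed to 356 and 643 CPM in germ-cell-like cells of E85 and E125, and the pregranulosa markers to 1188 CPM in glia-like cells of E125. The libraries shared 13 barcodes. The border between the epithelial classes at E85 was not stable: under 4 of the other settings 1 of them held fewer than 50 cells there. Stage differences are therefore given first for both epithelial classes together, and then for each class.

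In all epithelial-like cells together, CHGA and PCSK1N were far higher at E125 and NMB was lower. CHGA stood at 5.95 CPM at E85 (23 UMIs) and 111 CPM at E125 (1333 UMIs), 18.7-fold higher (95% interval 12.4 to 29.7). PCSK1N stood at 8.53 CPM (33 UMIs) and 97.5 CPM (1167 UMIs), 11.4-fold higher (8.09 to 16.7). PCSK1 was 2.13-fold lower (1.92 to 2.36), from 168 to 79.0 CPM, and NMB 2.65-fold lower (2.43 to 2.89), from 252 to 94.8 CPM. The mix of the epithelial classes enters these pooled values. The surface class held 13.9% of all UMIs at E85 and 9.91% at E125, and the pregranulosa class 9.87% and 16.5%. Within the classes NMB was 2.17-fold and 1.88-fold lower, less than in the pool. The part of the class mix in the pooled ratios was not tested. Intervals of ratios are exact conditional 95% intervals, and all intervals here cover counting error only. Of the 4 genes, 2 passed 2-fold upward and 2 downward, where 13.4% of the 9010 genes measured in these cells (50 or more UMIs over both libraries) were that much higher and 10.4% that much lower. Over 18 other settings the CHGA ratio ran from 17.7 to 25.5 and the PCSK1N ratio from 10.3 to 13.05. A floor of 1 UMI, counted among the 18, could not move these ratios, since all pooled sums were above 3 UMIs. NMB was 2.32-fold to 4.76-fold lower and PCSK1 1.82-fold to 2.26-fold lower, the latter past 2-fold in 10 of the 18.

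**Figure D1:**
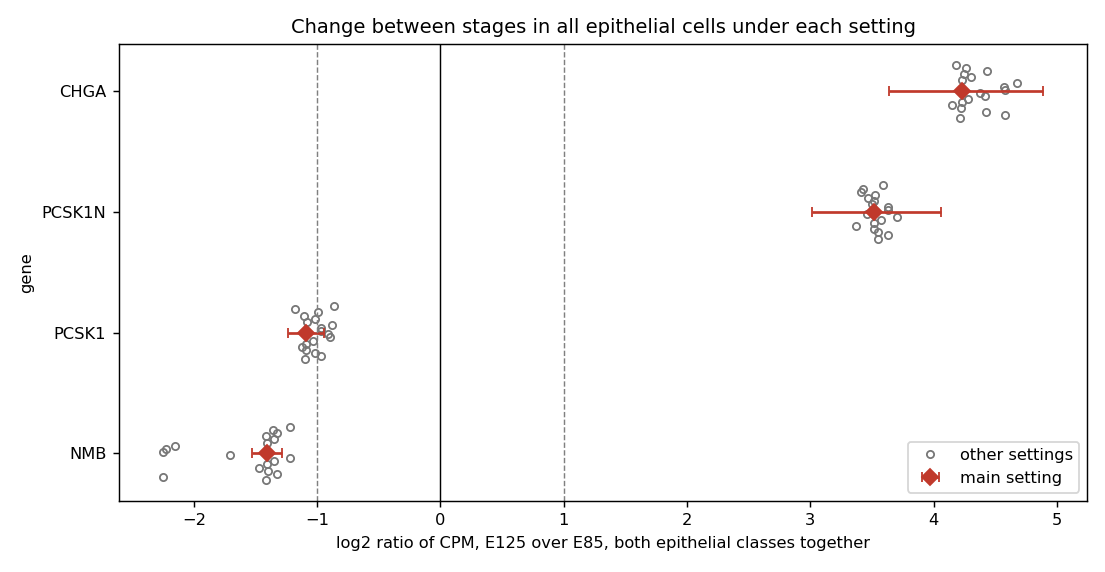
Log2 ratio of CPM, E125 over E85, in pregranulosa-like and surface-epithelium-like cells pooled (horizontal axis) for each gene (rows). The diamond with its bar is the main setting with its 95% interval for counting error, open circles are the 18 other settings, spread vertically only to be seen, and dashed lines mark 2-fold. CHGA and PCSK1N lie beyond 2-fold higher and NMB beyond 2-fold lower in every setting, whereas PCSK1 lies on both sides of the 2-fold line.

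CHGA lay mostly in the pregranulosa-like class in the E125 library. At E85 it had 16 UMIs in pregranulosa-like cells (9.95 CPM, 95% Poisson interval 5.69 to 16.2), 24 in stromal-like cells and 7 in surface-epithelium-like cells (3.1 CPM in each), 5 in germ-cell-like cells (2.62 CPM) and 0 in endothelial-like cells, where 3 UMIs would be 5.12 CPM. At E125 it had 1281 UMIs in pregranulosa-like cells (171 CPM, 162 to 181), 393 in stromal-like cells (27.6 CPM), 52 in surface-epithelium-like cells (11.6 CPM), 92 in germ-cell-like cells (9.08 CPM), 5 in endothelial-like cells (0.861 CPM) and 3 in glia-like cells (16.1 CPM). The pregranulosa-like level was thus the highest at both stages and at E125 lay 6.21-fold above the stromal-like level (5.54 to 6.97) and 14.8-fold above the surface-epithelium-like level (11.2 to 19.96). The orders among stromal-like, surface-epithelium-like and germ-cell-like cells at E85 lay within counting error.

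A CHGA UMI was found in 65.2% of the E125 pregranulosa-like cells (median depth 7973 UMIs) and in 0.662% of the endothelial-like cells (median depth 4892 UMIs), which should lack this granin. With each cell thinned to 2000 UMIs the shares were 31.7% of 555 cells (27.9 to 35.8) and 0.304% of 657 cells. At E85 the thinned share was 2.11% of 237 pregranulosa-like cells and 0% of 72 endothelial-like cells, with a 95% interval up to 4.99%. At E125, a cell with CHGA carried 3.26 UMIs on average and at most 27, and the 10% of cells with the most CHGA held 42.8% of its UMIs. Within the class the level was lower in deeper cells: with the cells split into 3 equal groups by depth it was 343 CPM in the shallowest, 187 CPM in the middle and 141 CPM in the deepest group. CHGA outside the epithelia was mostly stromal, and the E125 stromal-like clusters of 50 or more cells ranged from 21.2 CPM to 49.98 CPM. In the myeloid-like cells of E125 it had 0 UMIs.

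PCSK1N, the inhibitor gene, was no epithelial marker. At E85 it was sparse, with 24 UMIs in germ-cell-like cells (12.6 CPM), 25 in surface-epithelium-like cells (11.1 CPM), 8 in pregranulosa-like cells (4.97 CPM) and 9 in stromal-like cells (1.16 CPM). Among the first 3 of these, neighbours in the order did not differ beyond counting error. Germ-cell-like and pregranulosa-like cells were not compared directly. The 33 perivascular-like cells of E85, too few to be compared, held 5 UMIs (40.5 CPM). At E125 it reached 187 CPM in glia-like cells (130 to 261, 35 UMIs in 74 cells), 181 CPM in germ-cell-like cells (173 to 189, 1833 UMIs in 131 cells) and 161 CPM in perivascular-like cells (131 to 196, 100 UMIs in 126 cells). Pregranulosa-like cells followed at 111 CPM (103 to 118) and surface-epithelium-like cells at 75.8 CPM (68.0 to 84.3), then lymphoid-like cells at 18.2 CPM, endothelial-like cells at 17.9 CPM, stromal-like cells at 9.63 CPM and myeloid-like cells at 3.68 CPM. The 3 leading classes lay within counting error of their neighbours in the order, while both epithelial levels lay below them and above the rest. Epithelial-like cells held 41.8% of the PCSK1N UMIs at E85 (30.8 to 53.4) and 34.3% at E125 (32.7 to 36.0), beside 23.7% and 26.4% of the UMIs of all genes. With each cell thinned to 2000 UMIs the PCSK1N share at E125 was 51.5%. The data thus go against calling PCSK1N a gene of the ovarian epithelia alone.

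Cells with a PCSK1N UMI made up 45.6% of the pregranulosa-like cells and 41.3% of the surface-epithelium-like cells of E125, and 16.0% and 17.9% after thinning to 2000 UMIs. Thinning left 235 of the 334 surface-epithelium-like cells. The thinned shares were 32.3% in germ-cell-like cells, 23.5% in glia-like cells, 13.5% in perivascular-like cells and 2.13% in endothelial-like cells. Germ-cell-like cells of E125 were very deep, with a median of 50845 UMIs, and a cell with PCSK1N there carried 21.6 UMIs on average and up to 70. The 10 germ cell markers summed to 14219 CPM in those cells, 237 CPM in surface-epithelium-like cells, 208 CPM in stromal-like cells and 89.3 CPM in pregranulosa-like cells. The part of germ cell RNA in the PCSK1N levels of the other classes was not tested. Perivascular PCSK1N was uneven, with UMIs in 23.0% of cells and 82.0% of the UMIs in 10% of them.

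**Figure D2:**
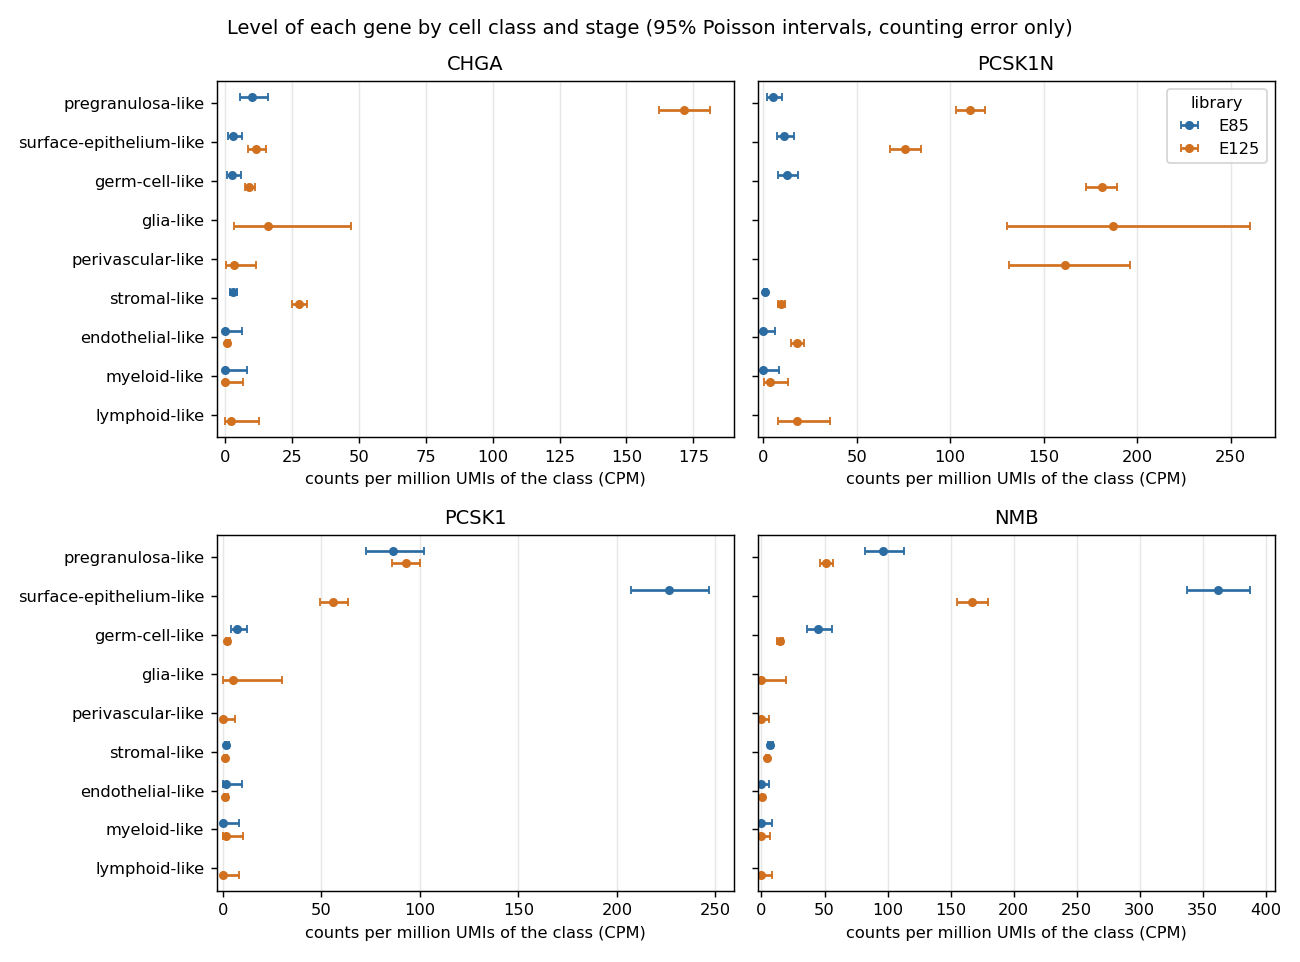
CPM of CHGA, PCSK1N, PCSK1 and NMB (horizontal axes, linear, with their own range) in each named class of 50 or more cells (rows) at E85 (blue) and E125 (orange), with 95% Poisson intervals for counting error. CHGA peaks in E125 pregranulosa-like cells at 171 CPM, PCSK1N is as high in germ, glial and perivascular classes as in epithelia or higher, and PCSK1 and NMB are near 0 outside the epithelia and germ cells.

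PCSK1, the convertase, was nearly confined to the epithelia in the main setting at both stages. Epithelial-like cells were 13.5% of kept cells at E85 and 13.3% at E125, with 23.7% and 26.4% of the UMIs of all genes. They held 94.5% of the PCSK1 UMIs at E85 (92.5 to 96.1, 651 of 689 UMIs) and 94.6% at E125 (93.0 to 95.9, 946 of 1000). At E85 it stood at 227 CPM in surface-epithelium-like cells (207 to 247, 512 UMIs) and 86.4 CPM in pregranulosa-like cells (72.6 to 102, 139 UMIs), then 7.33 CPM in germ-cell-like cells, 1.81 CPM in stromal-like cells and 1.71 CPM in endothelial-like cells. At E125 it stood at 92.9 CPM in pregranulosa-like cells (86.1 to 100, 694 UMIs) and 56.0 CPM in surface-epithelium-like cells (49.3 to 63.4, 252 UMIs), then 5.35 CPM or less in every other named class of 50 or more cells. In the main setting the order of the epithelial classes turned, from 2.62-fold higher in the surface class at E85 (2.17 to 3.19) to 1.66-fold higher in the pregranulosa class at E125 (1.43 to 1.92). The E85 side depends on the unstable border: without a cell filter 34 cells, and with no doublets removed 20 cells, were surface-epithelium-like, and the pregranulosa class was then the highest at E85. At E125 the middle of 3 depth groups gave 116 CPM in the surface class (92.7 to 142) and 99.9 CPM in the pregranulosa class (85.1 to 116), with overlapping intervals. The shallowest gave 112 CPM (63.8 to 181) and 164 CPM (136 to 196), also overlapping. The deepest gave 41.2 CPM (34.8 to 48.4) and 80.2 CPM (72.6 to 88.3), without overlap. Each class was split on its own, so depths differed between classes, with medians of 27733 and 13475 UMIs in the deepest groups. Cells with a PCSK1 UMI, after thinning, were 32.9% of surface-epithelium-like cells at E85 and 11.1% of the 235 of 334 left at E125 (7.36 to 15.8). They were 13.9% of pregranulosa-like cells at both stages (11.1 to 17.0 at E125, overlapping the surface class), and 1.39% and 0.457% of endothelial-like cells.

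NMB, the peptide gene, was highest in the surface class at both stages, followed in the same order by pregranulosa-like, germ-cell-like and stromal-like cells. At E85 the levels were 362 CPM (338 to 388, 818 UMIs), 96.4 CPM (81.8 to 113, 155 UMIs), 45.0 CPM (36.0 to 55.6, 86 UMIs) and 6.85 CPM (53 UMIs), and no UMI was found in endothelial-like or myeloid-like cells. At E125 they were 167 CPM (155 to 179, 751 UMIs), 51.4 CPM (46.4 to 56.8, 384 UMIs), 14.7 CPM (12.4 to 17.3, 149 UMIs) and 4.64 CPM (66 UMIs), with 2 UMIs in endothelial-like cells and 0 in myeloid-, lymphoid-, glia- and perivascular-like cells. Each step in both orders was larger than counting error in the main setting. The first step at E125 rests on 1 of the clusters of the surface class, the one led by ERICH3 and C3, whose name is uncertain. In the other, led by KRT7 and RDH10, NMB was 60.1 CPM (48.8 to 73.3), within counting error of the pregranulosa level. Its thinned share there, 8.86% of 79 cells (3.64 to 17.4), stood beside 9.37% in pregranulosa-like cells. A UMI was found, after thinning, in 46.5% of the surface-epithelium-like cells of E85 and 23.8% of those of E125, against 0% and 0.304% of endothelial-like cells. Thinning left out 7 of the 265 surface-epithelium-like cells of E85 and 99 of the 334 of E125. It left 79 cells of the cluster led by KRT7 and 154 of the one led by ERICH3. The 10% of cells with the most NMB held 42.9% and 58.9% of its UMIs in the surface class at E85 and E125. An unnamed E85 cluster of 220 cells, led by HBAI, CCL19 and MIF, also held NMB at 106 CPM. Of the 86 NMB UMIs of E85 germ-cell-like cells, 38 came from 1 cell of 132840 UMIs.

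**Figure D3:**
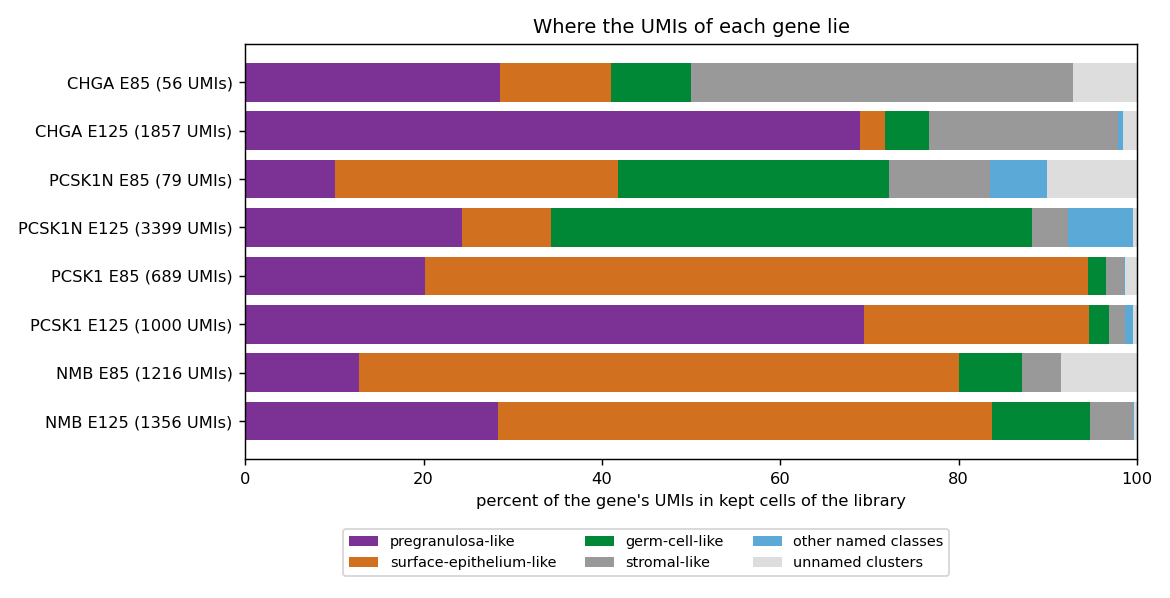
Percent of the UMIs of each gene in kept cells (horizontal axis) that lie in each group of classes (colours), per gene and stage (rows, with total UMIs). PCSK1 is mostly epithelial at both stages and lies mostly in the surface class at E85 (74.3%) and in the pregranulosa class at E125 (69.4%), a split that at E85 depends on an unstable class border. The pregranulosa share of CHGA is 28.6% and 69.0%. At full depth PCSK1N lies largely in the very deep germ-cell-like cells at E125. With cells thinned to 2000 UMIs, which is not drawn, its epithelial share at E125 was 51.5% in place of 34.3%.

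Between the stages, CHGA and PCSK1N passed 2-fold in the pregranulosa class and PCSK1 and NMB did not. CHGA was 17.2-fold higher at E125 (10.6 to 30.2) and PCSK1N 22.2-fold higher (11.2 to 51.7). PCSK1 stood 1.07-fold higher, with an interval that holds 1 (0.895 to 1.30), and NMB was 1.88-fold lower (1.55 to 2.27), just inside the 2-fold limit. So 2 of 4 genes passed 2-fold upward and 0 downward, where 14.6% and 10.6% of the 7444 genes measured in this class were. In the surface class, CHGA was 3.73-fold higher (1.69 to 9.74) and PCSK1N 6.85-fold higher (4.56 to 10.7), while PCSK1 was 4.04-fold lower (3.47 to 4.72) and NMB 2.17-fold lower (1.96 to 2.40). Here 2 of 4 were higher and 2 lower, where 14.0% and 7.78% of 7137 measured genes were. The median of all measured genes was -0.06 (log2) in the pregranulosa class and 0.10 in the surface class. The difference between the classes in their stage ratios was not tested. In both epithelial classes the cells of E85 and E125 fell mostly into different clusters. In the pregranulosa class only 14 E85 cells lay in the cluster of the 603 E125 cells. A UMI of AMH, a granulosa cell gene, was found in 2 of the 251 E85 cells and 296 of those of E125. The part of cell state in the stage ratios was not tested. The median share of mitochondrial UMIs in the surface class was 9.29% at E85 and 8.13% at E125, against 5.39% and 2.74% in the pregranulosa class, and its part in these ratios was not tested.

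CHGA and PCSK1N were also higher at E125 outside the epithelia. In stromal-like cells CHGA was 8.91-fold higher (5.90 to 14.1) and PCSK1N 8.28-fold higher (4.24 to 18.5), whereas NMB was 1.48-fold lower (1.01 to 2.15). That is 2 of 3 measured members higher and 0 lower, beside 17.8% and 11.2% of all measured genes. In germ-cell-like cells PCSK1N was 14.4-fold higher (9.65 to 22.5), CHGA 3.47-fold higher (1.43 to 10.9) and NMB 3.06-fold lower (2.32 to 4.02), beside 18.0% and 18.1%. Without the 1 cell with the most NMB in each library, the last value was 1.91-fold lower, inside the limit. The germ-cell-like cells had a median depth of 4648 UMIs at E85 and 50845 at E125. The part of this difference in their ratios was not tested. With the mean over cells PCSK1N was 8.01-fold and CHGA 9.01-fold higher there. After thinning, CHGA was found in 0 of 89 of these cells at E85 and 1 of 99 at E125. In endothelial-like cells PCSK1N went from 0 UMIs to 104, 3.50-fold higher when the 0 is set to the floor of 3 UMIs. The exact interval, taken without the floor, had a lower limit of 2.80 and no upper limit. No other member was measured there, beside 19.3% of all measured genes higher and 7.42% lower. PCSK1N was therefore at least 2-fold higher in all 5 classes where it was measured, and CHGA in all 4.

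**Figure D4:**
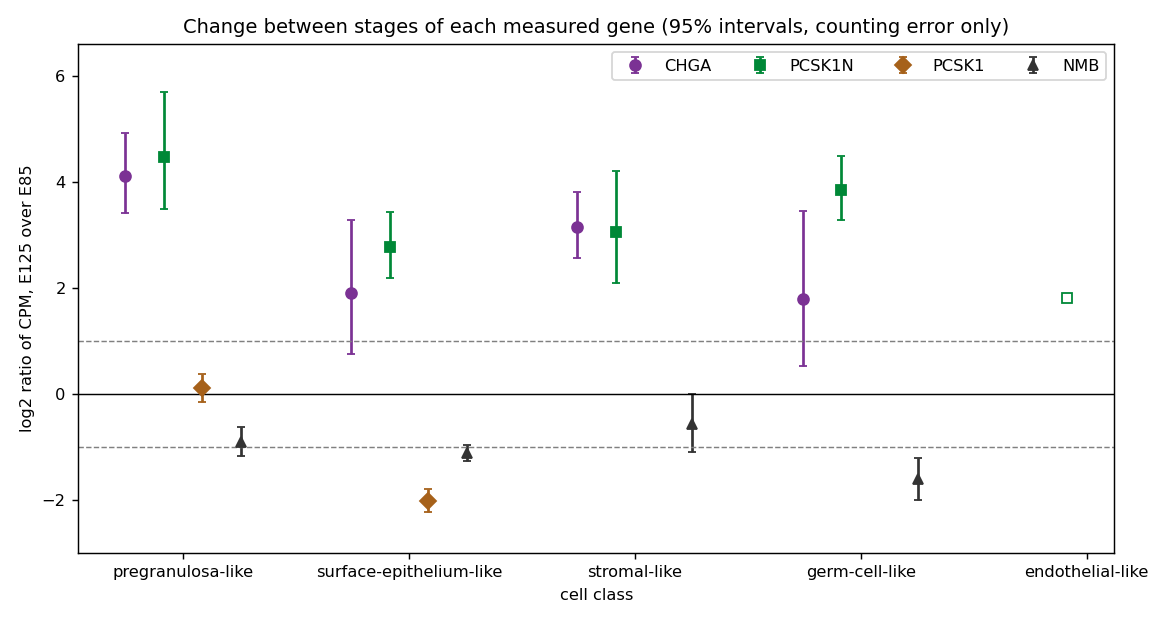
Log2 ratio of CPM, E125 over E85 (vertical axis), of each member with 50 or more UMIs in a class (horizontal axis), with exact 95% intervals for counting error, and dashed lines at 2-fold. The open square is a ratio set against a floor of 3 UMIs, drawn without its interval. CHGA and PCSK1N lie above the upper line in each class shown, and PCSK1 and NMB lie at or below 0 except PCSK1 in pregranulosa-like cells.

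The E125 surface class was made of 2 clusters that differed in NMB. The first, 169 cells with a median depth of 1866 UMIs, was led by KRT7, RDH10 and NR1H4. The second, 163 cells with a median depth of 10574 UMIs, was led by ERICH3, C3 and CPXM2, with NMB itself among its leading genes although the members were kept out of the clustering. Its name rests on a narrow margin, a mean marker share of 0.358 for surface epithelium against 0.320 for pregranulosa. NMB stood at 60.1 CPM in the first cluster and 228 CPM in the second, 3.79-fold higher (3.05 to 4.74), and CHGA at 4.96 and 15.3 CPM, 3.09-fold higher (1.44 to 7.60). PCSK1 (53.9 and 57.4 CPM) and PCSK1N (81.8 and 72.4 CPM) did not differ between them beyond counting error. Without the second cluster NMB in the surface class was 6.06-fold lower at E125 rather than 2.17-fold, and without the first it was 1.6-fold lower, inside the 2-fold limit. PCSK1 was 4.23-fold and 3.96-fold lower in the same order, and CHGA had too few UMIs to count as measured without the second cluster. These settings were chosen after seeing the data. In 3 of the settings listed beforehand the second cluster took another name or none, and the epithelial share of the NMB UMIs of E125 was then 36.1%, 35.8% and 35.5% in place of 83.7%.

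**Figure D5:**
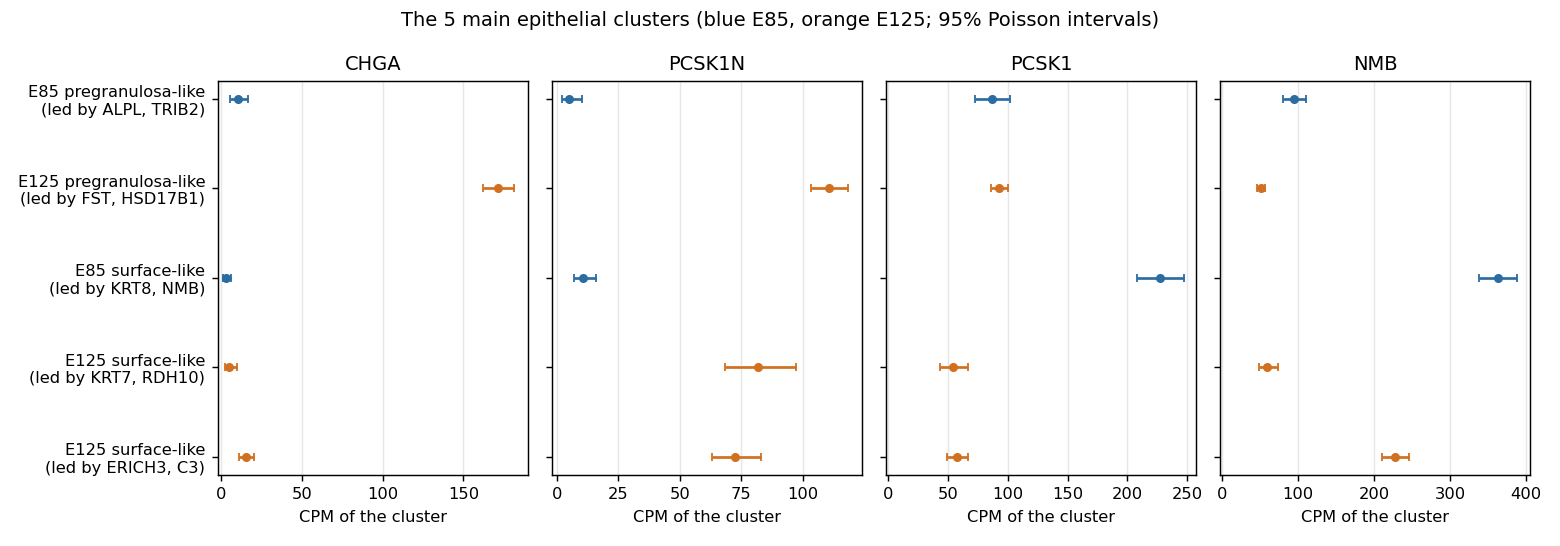
CPM (horizontal axes, linear) of the 4 genes in the 5 largest epithelial clusters (rows, with stage, class and leading genes), with 95% Poisson intervals for counting error. The pregranulosa-like cluster of E125 stands apart for CHGA, the surface-like cluster of E85 for PCSK1 and NMB, and the surface-like clusters of E125 differ in NMB but not in PCSK1.

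Cells of the surface class with and without a UMI of KRT19, a keratin of simple epithelia and one of the surface markers, differed in NMB and PCSK1 at both stages. At E85, NMB was 250 CPM in the 139 cells with KRT19 and 554 CPM in the 126 without, 2.22-fold higher without (1.93 to 2.55). PCSK1 was 172 and 320 CPM, 1.86-fold higher without (1.55 to 2.22). PCSK1N did not differ beyond counting error at E85 (0.742-fold with KRT19, 0.313 to 1.81). At E125, NMB was again higher without KRT19, 233 CPM in 238 cells against 75.8 CPM in 96 cells. PCSK1 turned, at 36.8 CPM without and 82.7 CPM with KRT19, 2.25-fold higher with it (1.73 to 2.93), and PCSK1N was 1.74-fold higher with it (1.40 to 2.17). Cells with KRT19 were deeper, with a median of 16022.5 UMIs against 3414 at E125 and 7748 against 5852.5 at E85, and the part of depth in these differences was not tested. The E125 surface class also holds the clusters led by KRT7 and by ERICH3, with NMB at 60.1 and 228 CPM. Their part in the KRT19 differences was not tested. Pregranulosa-like cells of E125 were split by AMH, the anti-Mullerian hormone gene of granulosa cells, into 296 cells with and 307 without. CHGA was 158 CPM in the former and 203 CPM in the latter, 1.29-fold higher without AMH (1.15 to 1.45), and PCSK1 was 102 and 71.8 CPM, 1.42-fold higher with it (1.19 to 1.71). PCSK1N, at 113 and 105 CPM, did not differ beyond counting error. Their depths also differed, with medians of 9878.5 and 6693 UMIs.

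Cells with all 4 members numbered 1 in each epithelial class of E125 after thinning, and 0 in those of E85. At full depth they were 59 of 603 pregranulosa-like and 14 of 334 surface-epithelium-like cells at E125, and 0 of 251 and 1 of 265 at E85. After thinning, 30.8% of pregranulosa-like cells had a UMI of any member at E85 and 54.2% at E125, against 62.0% and 46.8% of surface-epithelium-like cells. Of the latter class 235 of 334 cells were left at E125. In E125 pregranulosa-like cells, PCSK1N was found in 16.5% of the cells with CHGA (11.3 to 22.8) and in 15.8% of those without (12.3 to 19.9), and the intervals overlap. PCSK1 was found in 13.6% and 14.0% in the same way. At full depth the shares were apart, 50.6% against 36.2% for PCSK1N and 52.9% against 30.5% for PCSK1. In E85 surface-epithelium-like cells, NMB was found in 56.5% of the thinned cells with PCSK1 (45.3 to 67.2) and in 41.6% of those without (34.2 to 49.3). These intervals overlap, but overlap does not show that the shares are equal, and their difference was not tested. At full depth the direction was the same, with shares of 81.5% (74.6 to 87.1) and 54.4% (44.3 to 64.2), without overlap. In those of E125, PCSK1N was found in 10.7% of the cells with NMB (4.03 to 21.9) and 20.1% of those without (14.5 to 26.7), again with overlap. At full depth the direction was the opposite, 60.3% with NMB (52.0 to 68.1) and 25.7% without (19.5 to 32.6). The part of depth in the full-depth shares was not tested.

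The patterns most like each member were sought among 8268 genes over 15 points, 1 for each class of 50 or more cells in a library, as Pearson correlation of log2(CPM + 10). The points share libraries and classes, so the values are a description. CHGA was most like RSPO3 (r = 0.93), HSD17B1 (0.90), CDH10 (0.89), CYM (0.87) and AMH (0.87). HSD17B1, a steroid dehydrogenase of granulosa cells, stood at 85.8 CPM in pregranulosa-like cells of E85 and 527 CPM in those of E125, and AMH at 1.24 and 196 CPM. PCSK1N was most like AXIN1 (0.89), GATAD1 (0.88), PINK1 (0.88), C4orf48 (0.87) and CCDC112 (0.86). Among pregranulosa-, surface-epithelium-, stromal-, germ-cell- and endothelial-like cells of E125, all 5 were highest in germ-cell-like cells. C4orf48 went from 0.622 to 184 CPM in pregranulosa-like cells and stood at 249 CPM in germ-cell-like cells of E125. PCSK1 was most like HS3ST5 (0.97), TLL2 (0.96), ABAT (0.96), SOLD1 (0.95) and TMEM114 (0.94). NMB was most like CYTL1 (0.99), ELMO3 (0.96), TMEM114 (0.96), TRIM6 (0.96) and MYBPC2 (0.95). Among the members, PCSK1 and NMB were alike (0.92), CHGA and PCSK1N less so (0.48), and PCSK1N was unlike PCSK1 (0.09) and NMB (0.06).

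Of 7 other granins and granule cargo genes with a feature, 0 were measured in the pregranulosa class and 1 in the surface class, SCG2 (secretogranin II), at 19.9 CPM at E85 and 13.6 CPM at E125, within 2-fold. The next highest, SCG5, NPTX2 and SCG3, reached at most 7.52, 2.67 and 0.622 CPM. Of 15 prohormone processing genes, 6 were measured in each class. In the pregranulosa class 4 were higher, 1 lower and 1 within 2-fold, beside 14.6% higher and 10.6% lower of all measured genes, with a median of 1.61 (log2) beside -0.06. The carboxypeptidase gene CPE, which trims cut peptides, was 28.0 and 96.1 CPM, 3.43-fold higher (2.54 to 4.75). PAM, which amidates peptide ends, was 32.3 and 102 CPM, 3.16-fold higher (2.39 to 4.27). The convertase genes PCSK5 and PCSK4 were 4.09-fold (2.18 to 8.67) and 2.96-fold higher (1.09 to 11.2), the latter on 4 UMIs at E85, and the lysosomal protease gene CTSB was 4.06-fold lower (2.79 to 5.91). In the surface class CPE was 2.31-fold higher (1.86 to 2.91), the other 5 were within 2-fold (all measured genes: 14.0% higher, 7.78% lower), and the median was 0.56 beside 0.10. CPE and PAM were as high in stromal-like cells of E125, at 86.2 and 108 CPM, and CPD was 1.27-fold higher in both epithelial classes.

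Of 30 granule transport and exocytosis genes with a feature, 12 were measured in the pregranulosa class, of which 2 were higher, 1 lower and 9 within 2-fold, close to the 14.6% and 10.6% of all measured genes, with a median of 0.16 beside -0.06. CADPS2, a priming factor of dense core vesicles, was 4.35 and 52.6 CPM, 12.1-fold higher (5.81 to 30.3), and SYTL4 3.34-fold higher on 4 UMIs at E85 (1.24 to 12.6), while SYT11 was 2.46-fold lower (1.31 to 4.48). In the surface class CADPS2 was 4.34-fold higher (2.49 to 8.18), the other 6 of 7 measured were within 2-fold, beside 14.0% higher and 7.78% lower of all measured genes, and the median was 0.75 beside 0.10. SYT6, a synaptotagmin, stood at 150 and 194 CPM in the pregranulosa class and at 1.42 and 2.67 CPM in stromal-like cells. PTPRN2, a granule membrane protein, stood at 63.4 and 117 CPM in the pregranulosa class, 1.85-fold higher (1.51 to 2.30). ICA1 reached 99.3 CPM in the pregranulosa class and 194 CPM in stromal-like cells of E125.

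Of 36 other peptide hormone genes with a feature, 6 were measured in the pregranulosa class, with 3 higher and 0 lower beside 14.6% and 10.6% of all measured genes, and a median of 0.85 beside -0.06. STC1, the stanniocalcin gene, was 139 and 303 CPM, 2.19-fold higher (1.90 to 2.52), ADM (adrenomedullin) 11.1-fold higher (5.33 to 27.8), and PENK went from 2 UMIs (1.24 CPM) to 104 (13.9 CPM), with a ratio interval of 3.02 to 93.7. In the surface class 7 were measured, with 2 higher and 1 lower beside 14.0% and 7.78% of all measured genes, and a median of -0.15 beside 0.10. TAC1, the substance P gene, was 10.2 and 110 CPM there, 10.8-fold higher (7.13 to 17.2), ADM 2.49-fold higher (1.55 to 4.19) and IGF2 8.19-fold lower (4.77 to 14.9). CCK (cholecystokinin) stood at 62.4 and 31.8 CPM, 1.96-fold lower (1.54 to 2.49), and NUCB2 was within 2-fold in both classes. The receptor genes of the bombesin peptides were hardly detected: NMBR and BRS3 had 0 UMIs in both epithelial classes and GRPR reached at most 0.222 CPM. Of 18 neuroendocrine transcription factor genes with a feature, 2 were measured in each class, RCOR1, a corepressor, higher in both, and CREB1, within 2-fold. RCOR1 went from 1 UMI to 121 in the pregranulosa class (ratio interval 4.59 to 1037) and was 6.37-fold higher in the surface class (2.79 to 17.9). CREM and PROX1 reached at most 5.09 and 1.11 CPM. Markers of neuronal and chromaffin cells, which use these granules, summed to 18.0 and 31.2 CPM in pregranulosa-like cells and 181 and 224 CPM in surface-epithelium-like cells of E85 and E125, and to 365 and 277 CPM in stromal-like cells. Among these markers, DBH and PHOX2A were at 0 in both epithelial classes at both stages.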

How the data were processed

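Single-cell RNA was measured with 10x Genomics droplets in 1 ovary library per stage, E85 and E125. The deposited matrices hold raw UMI counts per gene and barcode, made with Cell Ranger 6.0.0 per the file headers and 3.1 per the submitters' processing notes. For the genome build, the name is not given in the sources used here. Sample labels give ovary and female, whereas the extraction text speaks of testes. Of 27271 features, 10655 carry no symbol and could match no list.

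Of 4397 barcodes with 17748948 UMIs at E85 and 8346 with 49692252 UMIs at E125, those with at least 500 genes and at most 20% of UMIs from 13 mitochondrial genes were kept. Scrublet called 2 and 0 doublets, so the barcodes with the highest Scrublet scores were removed instead at 0.8% per 1000 barcodes (155 and 557 barcodes). Both libraries were clustered together with scanpy 1.11.5 and leidenalg 0.10.2 (2000 variable genes without the 4 members, 30 principal components, 15 neighbours, resolution 1). Clusters were named from 121 markers of 13 classes, 105 of them with a feature, and names are rebuilt, not the authors'. Counts were summed per class and library; a gene was measured with 50 or more UMIs over both libraries. Intervals are exact 95% Poisson, conditional or Clopper-Pearson intervals (scipy 1.17.1) for counting error only; classes under 50 cells were not compared. A sum of 0 to 3 UMIs was set to a floor of 3 before a gene was called 2-fold higher or lower. The interval script and the naming were tested on simulated data.

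The members and gene lists were chosen with earlier results of these data known. The genes named were the members, the 5 most alike in pattern, and from each list the 4 highest and those measured and past 2-fold; a few further list genes were chosen after their values were seen. Alternatives covered filters, doublets, clustering, naming, depth, scaling (edgeR 4.0.16 TMM and DESeq2 1.42.0 size factors, used for scaling only) and the floor.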

Additional observations from a re-analysis of the deposited data

How the results depend on the processing

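The counts of members past 2-fold depended on the border between the epithelial classes. In pregranulosa-like cells 2 members were higher in every setting that gave a value, and 0 were lower in the main setting. That lower count was 2 without a cell filter, and 1 with no doublets removed, with the mean over cells, and with variable genes scaled to unit variance. In surface-epithelium-like cells the main counts were 2 higher and 2 lower. The higher count was 1 at Leiden resolution 0.5 and 2, with each library clustered alone, with classes named by fold, with thinning to 2000 UMIs, with scaled genes, and without the second E125 surface cluster. In 5 of these 7 CHGA had too few UMIs to be measured, and at resolution 0.5 and with scaled genes it was within 2-fold (1.93 and 1.72). The lower count was 1 with a 10% mitochondrial limit, at resolution 0.5, and without the first E125 surface cluster. The scaled setting and those without a cluster were chosen after seeing the data, and the cause of these changes was not tested. No ratio that passed 2-fold in the main setting changed direction. The pregranulosa-like class gave no value with a 10% mitochondrial limit (0 cells at E85) or at resolution 0.5 (14 cells), nor the surface class without a cell filter (34 cells) or with no doublets removed (20 cells). The pregranulosa-like ratio ran from 16.6 to 31.6 for CHGA and from 11.3 to 26.9 for PCSK1N. PCSK1 there ran from 2.25-fold lower without a cell filter to 1.46-fold higher with the mean over cells. NMB there was 1.55-fold to 4.56-fold lower. In the surface class the ratio ran from 1.72 to 4.93 for CHGA and from 5.82 to 10.5 for PCSK1N. PCSK1 in that class was 2.54-fold to 5.28-fold lower, and NMB 1.19-fold (10% mitochondrial limit) to 6.06-fold lower. Of the 92 epithelial ratios in settings listed beforehand, 74 stayed close and 18 moved; of 90 ratios in other classes, 88 and 2. The class with the highest level moved in 16 of 88 cases and the epithelial share of UMIs in 21 of 80; the lowest shares at E125 were 78.1% for PCSK1 and 35.5% for NMB, and without a cell filter the highest PCSK1 level of E125 was in steroidogenic-like cells. Thinning put the epithelial share of E125 UMIs at 55.3% for CHGA and 51.5% for PCSK1N. At E85, CHGA and PCSK1N rest on 56 and 79 UMIs in all kept cells, so their order over classes is the least certain. No paired analysis was possible because each stage has 1 library.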
